A study of Mus musculus with 4 samples.

Results

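Pulmonary surfactant is made, stored and secreted by alveolar type 2 cells. The 10 genes described here encode surfactant proteins, parts of the organelle that holds surfactant, enzymes, a phosphate cotransporter and a transcription factor. They are Sftpa1, Sftpb, Sftpc, Sftpd, Abca3, Lamp3, Slc34a2, Napsa, Lpcat1 and Etv5, chosen by name from the 32285 genes listed for each library. Their UMIs (unique molecular identifiers, the counted RNA molecules) were followed in type 2 cells of the lung with no upper limit on detected genes, in all other lung cells as a background, and in the synovium, where no type 2 cells are found.

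The TNF+ group was the TNF-Tg line, in which a transgene for human TNF leads to inflammatory arthritis and lung disease, and the TNF- group was its littermates that lacked the transgene. The mice, females of 4 months on a C57BL/6 background, gave lung and synovium for single-cell capture of sorted viable cells. Each suspension mixed the tissue of several animals of a genotype, 3 to 5 for lung and 5 to 10 for synovium. The series therefore holds 4 libraries, 1 per genotype and tissue, and no replicate, so no p-value or standard error is given: every interval below is a 95% interval for counting error only, and a difference between TNF- and TNF+ is a difference between 2 libraries.

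The libraries held 48454234 to 155989523 UMIs on 4246 to 11243 barcodes, and 3498 to 11083 of them had at least 200 detected genes and at most 20% mitochondrial UMIs. Any pair of libraries shared between 5 and 21 barcodes. The cells of each tissue were clustered with the 10 genes left out, and clusters were named from other marker genes, so each name used here stands for cells that carry the markers of that type. The type 2-like cluster had 19 of 19 type 2 markers, among them Cxcl15, Sfta2, Lgi3 and the transcription factor Nkx2-1. It held 444 of 8296 cells in TNF- lung (5.35%, exact binomial interval 4.88 to 5.86) and 255 of 11083 in TNF+ lung (2.30%, 2.03 to 2.60).

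Surfactant is a mixture of phospholipids and a few proteins that lowers surface tension at the air-liquid interface. Type 2 cells assemble it in lamellar bodies, lysosome-related organelles that fuse with the cell surface. SP-B and SP-C, small hydrophobic proteins made from the precursors that Sftpb and Sftpc encode, spread the lipid film, while SP-A and SP-D (Sftpa1 and Sftpd) are collectins, soluble lectins that bind microbes and take part in innate defence and surfactant turnover.

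In the GRCm38 build Sftpc lies on the reverse strand at chr14:70520949-70524081 and Sftpb on the forward strand at chr6:72304610-72314371. The collectin genes are neighbours on chromosome 14, Sftpa1 at chr14:41131782-41136452 on the forward strand and Sftpd at chr14:41172214-41185149 on the reverse strand. Abca3 (chr17:24351950-24410201, forward) encodes the transporter that moves phospholipid into lamellar bodies. Lamp3 (chr16:19653378-19706375, reverse) encodes a lysosomal membrane protein found in lamellar bodies. Lpcat1 (chr13:73467197-73516422, forward) encodes an acyltransferase that makes the saturated phosphatidylcholine of surfactant. Slc34a2 (chr5:53038081-53071664, forward) encodes the sodium-phosphate cotransporter of the apical membrane. Napsa (chr7:44572380-44586862, forward) encodes an aspartic protease that cleaves the SP-B precursor. Etv5 (chr16:22381309-22439719, reverse) encodes an ETS transcription factor that maintains type 2 cell identity. No annotated gene overlaps any of them on the same strand.

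RefSeq promoter sequences were at hand for 7 of the 10 genes (GRCm38.p6), namely Sftpb, Sftpa1, Abca3, Lamp3, Slc34a2, Lpcat1 and Etv5. The 200 bases before the start are shown for 3 genes whose RNA was held almost wholly by type 2 cells (Sftpb, Sftpa1 and Lamp3) and for Abca3, which was also found in other cells. Capitals mark CTCAAG, the core that NKX2-1 binds, and TGTTTNC, a forkhead (FOXA-type) core, on either strand; the 2 motifs do not overlap in these genes.
Sftpb, chr6:72304410-72304609, strand +: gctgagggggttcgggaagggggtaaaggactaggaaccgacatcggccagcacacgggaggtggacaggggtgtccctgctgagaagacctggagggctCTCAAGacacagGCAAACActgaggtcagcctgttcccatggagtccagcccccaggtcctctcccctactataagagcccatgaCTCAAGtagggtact
Sftpa1, chr14:41131588-41131787, strand +: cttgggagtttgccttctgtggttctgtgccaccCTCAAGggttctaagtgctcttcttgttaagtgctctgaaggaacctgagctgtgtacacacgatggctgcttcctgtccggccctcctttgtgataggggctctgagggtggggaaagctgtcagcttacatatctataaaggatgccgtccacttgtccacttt
Lamp3, chr16:19706366-19706565, strand -: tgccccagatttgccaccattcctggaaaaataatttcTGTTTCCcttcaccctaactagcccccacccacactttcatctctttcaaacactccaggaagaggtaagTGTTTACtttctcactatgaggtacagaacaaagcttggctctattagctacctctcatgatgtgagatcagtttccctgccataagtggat
Abca3, chr17:24351823-24352022, strand +: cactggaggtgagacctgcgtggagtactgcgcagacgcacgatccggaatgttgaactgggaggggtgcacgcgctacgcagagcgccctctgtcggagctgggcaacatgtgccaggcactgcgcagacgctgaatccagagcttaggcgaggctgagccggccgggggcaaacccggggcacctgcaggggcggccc

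In the 250 bases before the start, Sftpb held CTCAAG at 100 and at 15 bases before the start and a FOXA-type match at 88 bases. Sftpa1 held CTCAAG at 166 bases, and Lamp3 held FOXA-type matches at 162 and 92 bases. Of the other genes, Etv5 had a FOXA-type match at 183 bases from 1 of its 2 starts. Abca3, Slc34a2 and Lpcat1 had neither motif in this window. The starts are those of the RefSeq promoters and can differ from the gene spans given above. For Slc34a2 the start was chr5:53049353, inside its span, so bases before the outer end of that span were not searched. Of 32851 promoters of the same length, 13.3% held CTCAAG, 17.8% TGTTTNC and 2.50% both, and Sftpb was the only one of the 7 genes with both.

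The median type 2 cell had 27146 UMIs and 5281 genes in TNF- and 34914 UMIs and 5899 genes in TNF+. The 10 genes together made up 19.7% of all UMIs of the TNF- and 17.7% of the TNF+ type 2 cells, and all 10 were detected in 440 of 444 and 252 of 255 cells. RNA of other cells was also present: 19.8% of TNF- and 46.3% of TNF+ type 2 cells had a UMI of Ptprc, which encodes the leukocyte antigen CD45. Marker lists were counted with at least 50 UMIs over both libraries, a 2-fold difference and a counting interval clear of 0, a rule that 5.3% of the 13824 genes with at least 20 UMIs met as higher and 4.26% as lower in TNF+ type 2 cells. By it, 15 of 20 macrophage and monocyte markers and 10 of 19 measured T cell markers were higher, and none of either list was lower. Of 18 endothelial markers 14 were lower and none was higher, of 9 measured club cell markers 5 were lower and 1 was higher, and of 18 B or plasma cell markers 4 were lower and 2 were higher. C1qb, a complement gene of macrophages, was at 0.933 CPM (the gene’s UMIs per 1000000 UMIs of the same cells) in TNF- and at 28.9 CPM in TNF+ type 2 cells, and Scgb1a1, the secretoglobin of club cells, was at 1504.7 and 78.7 CPM, while Hp (haptoglobin), on the same list, was at 603.2 and 3531.4 CPM. The part of this RNA in the differences below was not tested. With every cell that had a Ptprc UMI left out, 356 TNF- and 137 TNF+ cells remained, and the log2 ratio (TNF+ divided by TNF-) came to -0.80 for Sftpb, 0.51 for Sftpa1, 0.59 for Sftpd and -0.20 for Sftpc, close to the values over all type 2 cells given next. Etv5 and Abca3 moved more, to -0.42 and -0.40, against -0.56 and -0.47 over all type 2 cells.

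None of the 10 genes differed by 2-fold between TNF- and TNF+ type 2 cells, but they did not move together. The collectins and Lamp3 were higher in TNF+ cells and the other 7 were lower. Of all 13824 genes with at least 20 UMIs, 7.54% were at least 2-fold higher and 7.21% at least 2-fold lower in TNF+ type 2 cells. The median log2 ratio of TNF+ over TNF- was -0.29 for the 10 genes and -0.03 for all 13824.

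Sftpb showed the largest difference of the 10. Type 2 cells had 11934 CPM of it in TNF- and 6722 in TNF+, a log2 ratio of -0.83 (-0.84 to -0.81), or 1.78-fold lower. The difference was also visible per cell, with 317.0 UMIs per TNF- and 231.4 per TNF+ cell. The middle range of single cells did not overlap between the libraries: the quartiles were 9728 and 14002 CPM in TNF- and 5231 and 8147 CPM in TNF+. Quartiles of genes outside the 10 were not compared, so no share over all genes stands beside this. Sftpc, the precursor of the other hydrophobic protein, was at 149290 and 126780 CPM, a log2 ratio of -0.24 (-0.24 to -0.23). Its UMIs per cell went the other way, from 3965 in TNF- to 4364 in TNF+ cells, which were deeper.

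The collectins were the 2 genes with the largest positive ratios. Type 2 cells had 18767 CPM of Sftpa1 in TNF- and 26806 in TNF+, a log2 ratio of 0.51 (0.51 to 0.52), with 498.5 and 922.7 UMIs per cell. Sftpd was at 4319 and 6489 CPM, a log2 ratio of 0.59 (0.57 to 0.60), with 114.7 and 223.4 UMIs per cell. Single cells overlapped more than for Sftpb: the median TNF+ cell, at 26182 CPM of Sftpa1 and 6295 of Sftpd, lay above the upper quartile of the TNF- cells, which was 22639 and 5389 CPM.

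Among the genes of lamellar bodies and surfactant lipid, Abca3 was at 1019 and 736 CPM (log2 ratio -0.47, -0.51 to -0.43) and Lpcat1 at 1294 and 876 CPM (-0.56, -0.60 to -0.52). Lamp3 was at 1848 and 2078 CPM (0.17, 0.14 to 0.20), the smallest difference of the 10 in size. The transporter and the acyltransferase of surfactant lipid were thus both lower in TNF+ cells in CPM, while per cell they were at 27.1 and 25.3 UMIs for Abca3 and at 34.4 and 30.2 UMIs for Lpcat1.

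Slc34a2, the phosphate cotransporter, had 5190 CPM in type 2 cells of TNF- lung and 4435 in those of TNF+ lung (log2 ratio -0.23, -0.25 to -0.21). Napsa, the SP-B protease, was at 2186 and 1729 CPM (-0.34, -0.37 to -0.31). Etv5 was at 884 and 601 CPM (-0.56, -0.61 to -0.51). For Slc34a2 and Napsa, as for Sftpc, the direction turned when UMIs per cell were compared in place of CPM, with 137.8 and 152.6 UMIs per cell for Slc34a2 and 58.1 and 59.5 for Napsa.

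**Figure D1:**
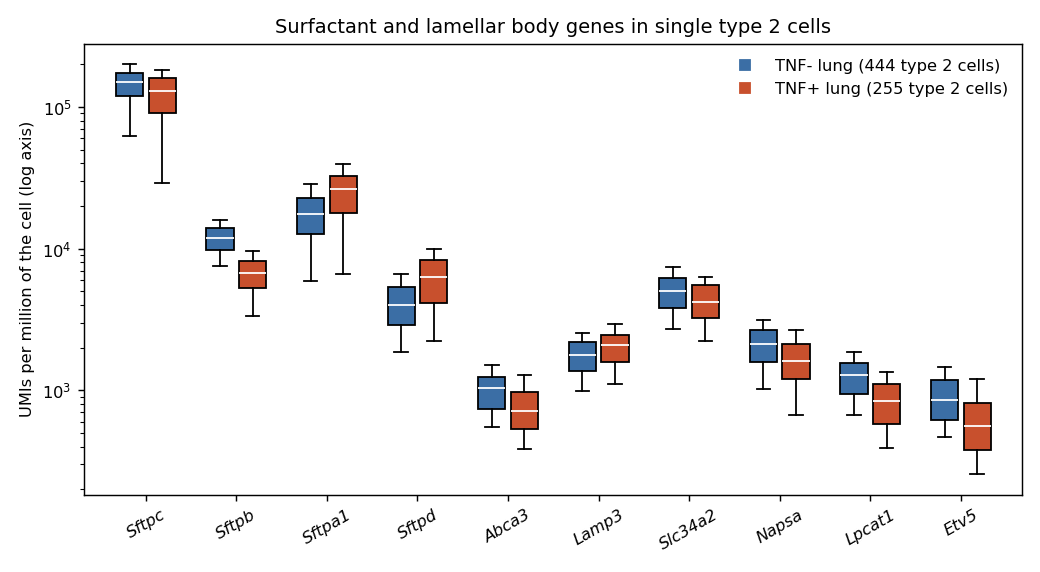
Level of each gene in single type 2 cells of the TNF- lung (444 cells, blue) and the TNF+ lung (255 cells, red), in CPM of the cell's own total on a log axis; boxes span the quartiles, white lines are medians and whiskers reach the 10th and 90th percentiles of cells. The Sftpb boxes do not overlap, and the Sftpa1 and Sftpd medians of TNF+ cells lie above the TNF- boxes.

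Cells were not replicates here, and their levels varied widely within a library. Sftpc ranged from 12 to 10437 UMIs per cell in TNF- and from 11 to 12108 in TNF+ type 2 cells. Across the cells with 15000 to 60000 UMIs, Sftpa1 and Sftpd correlated with r = 0.68 over 375 TNF- cells and 0.84 over 217 TNF+ cells, and Sftpc and Sftpa1 with 0.73 and 0.83 (Pearson, log2 of CPM + 1). Abca3 went least with the collectins, at -0.11 and -0.09 with Sftpd and at 0.01 and -0.06 with Sftpa1, and most with Lpcat1 (0.66) and Slc34a2 (0.62) in TNF- cells. In TNF+ cells its highest values were 0.35 with Etv5, 0.33 with Lamp3 and 0.33 with Sftpb. The points of each value share a library and a total, so these are descriptions only.

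The study's cell filter had an upper limit of 5000 detected genes in addition to the limits used here. Of the type 2 cells, 279 of 444 (62.8%) in TNF- and 208 of 255 (81.6%) in TNF+ lung had more than 5000 genes. The cells above the limit held 78.2% of the Sftpc UMIs of TNF- and 95.7% of those of TNF+ type 2 cells. They differed in level as well as in number: Sftpc was at 141850 CPM at or under the limit and 151510 CPM above it in TNF-, and at 77750 and 130440 CPM in TNF+.

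The limit also turned some comparisons. Over 5000 genes, the log2 ratio of Sftpa1 was 0.53 (0.52 to 0.54) and that of Sftpd 0.60 (0.59 to 0.62). At or under 5000 genes, with 165 TNF- and 47 TNF+ cells, it was -0.13 (-0.16 to -0.10) for Sftpa1, at 17499 and 16003 CPM, and 0.00 (-0.06 to 0.06) for Sftpd, at 4094 and 4095 CPM. Sftpc was at -0.22 above the limit and -0.87 at or under it, and Sftpb at -0.80 and -1.001. Abca3, at -0.51 above the limit, was at 0.03 (-0.09 to 0.15) at or under it. The TNF+ cells at or under the limit were also shallower, with a median of 11900 UMIs against 17668 in TNF-.

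**Figure D2:**
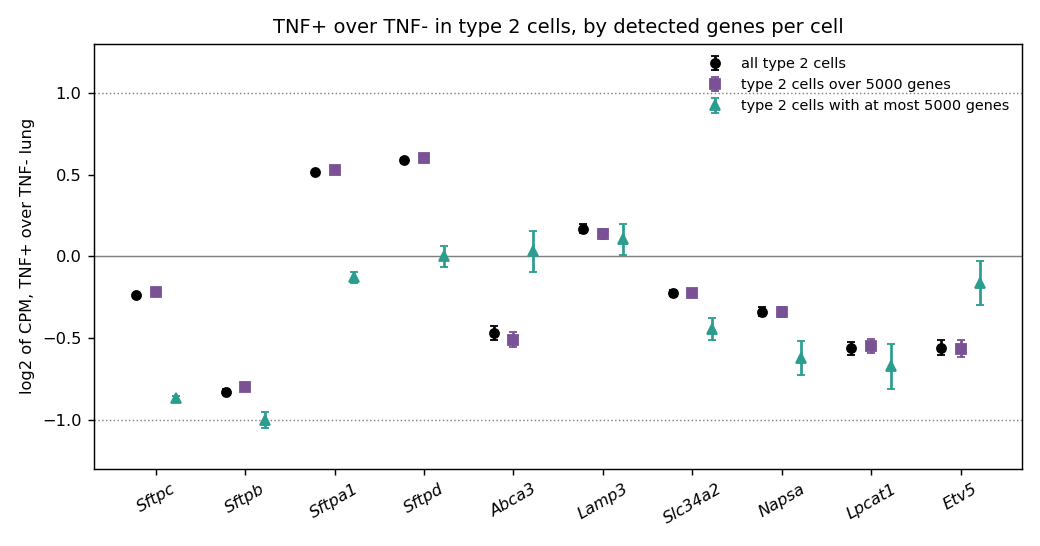
Log2 of CPM in TNF+ over TNF- lung for each gene in all type 2 cells (black circles), in those with more than 5000 detected genes (purple squares; 279 TNF- and 208 TNF+ cells) and in those with at most 5000 (green triangles; 165 and 47 cells); bars are 95% counting intervals and dotted lines mark a 2-fold difference. Sftpa1 and Sftpd are above 0 in the deeper cells and at -0.13 and 0.00 in the shallower cells.

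Within bands of depth the collectins were higher in TNF+ cells as well, though less so in shallower cells. At 30000 to 60000 UMIs, with 154 TNF- and 163 TNF+ cells, Sftpa1 was at 19227 and 28326 CPM (log2 ratio 0.56) and Sftpd at 4391 and 6816 CPM (0.63), while Sftpb was at 11657 and 6842 CPM (-0.77). At 15000 to 30000 UMIs, with 221 and 54 cells, the ratios were 0.34, 0.43 and -0.87. Under 15000 UMIs, with 68 and 31 cells, they were 0.18, 0.27 and -0.89.

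A finer clustering split the type 2 cells nearly by genotype. One cluster held 441 TNF- and 45 TNF+ cells and the other 3 TNF- and 209 TNF+ cells. In the TNF+ lung the cells of the first cluster were at 77220 CPM of Sftpc, 12168 of Sftpa1 and 3812 of Sftpd, and those of the second at 132090, 28369 and 6776 CPM. Among cells of the first cluster alone, Sftpa1 was lower in TNF+ (log2 ratio -0.63, -0.66 to -0.61), Sftpd was at -0.19 (-0.24 to -0.14) and Sftpb at -1.21 (-1.25 to -1.17). The higher collectin level of TNF+ type 2 cells was thus found in the second cluster, of which the TNF- lung had 3 cells. The 45 TNF+ cells of the first cluster had fewer UMIs per cell on average than its 441 TNF- cells. Depth was not matched in this comparison. The clusters were drawn from these cells without the 10 genes but with genes that vary with them, so this is a description.

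Sftpc UMIs were also found on most barcodes of other cells. A UMI of Sftpc was found in 91.2% of TNF- and 97.2% of TNF+ lung T cells, which do not express it, at 2.85 and 4.24 UMIs per cell and medians of 9345 and 9465 UMIs in all. After thinning every cell to 1000 UMIs, which left out shallower cells, the share was 26.8% (24.1 to 29.6) of TNF- and 36.6% (34.2 to 38.9) of TNF+ T cells. Type 2 cells were at 3965 and 4364 UMIs of Sftpc per cell. Before thinning, the share of cells with a UMI therefore did not tell expression from background for Sftpc. After thinning it did set type 2 cells apart from T cells, with a UMI in 444 of 444 TNF- and 254 of 255 TNF+ type 2 cells. Thinned T cells still had Sftpc UMIs, and the count relative to Sftpc was used in what follows. This takes RNA from 1 source to keep its genes in 1 ratio, which was not tested.

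For Sftpb, Sftpa1, Sftpd, Lamp3 and Slc34a2 that ratio varied less between cell types than for the other genes. In named classes of at least 50 cells other than the airway cells, with at least 10 UMIs, the count of these genes lay between 0.399 and 1.89 times the number that the Sftpc count and the type 2 ratio give. Type 2 cells held 96.3% of the Sftpc UMIs of all kept TNF- lung cells and 94.1% of those of TNF+ lung. For those 5 genes they held between 94.9% and 96.6% in TNF- and between 94.3% and 95.3% in TNF+ lung. Per 1000 Sftpc UMIs, Sftpa1 was at 125.7 in TNF- type 2 cells and at 123.3 in TNF- T and B cells, and at 211.4 and 196.2 in TNF+. Sftpb was at 79.9 and 80.9 in TNF- and at 53.0 and 41.8 in TNF+. Sftpd was at 28.9 and 24.4 in TNF- and at 51.2 and 40.7 in TNF+.

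The ratios of the background thus also differed between the libraries, in cells that the naming of type 2 cells does not touch. The log2 ratio of Sftpa1 per Sftpc was 0.67 (0.56 to 0.78) in T and B cells and 0.75 (0.74 to 0.76) in type 2 cells. Sftpb per Sftpc was at -0.95 (-1.12 to -0.79) in T and B cells and at -0.59 (-0.61 to -0.58) in type 2 cells, and Sftpd per Sftpc at 0.74 (0.49 to 0.99) and 0.82 (0.81 to 0.84). Endothelial cells, at a median of 7143 UMIs in TNF- and 972 in TNF+, were at 0.76 for Sftpa1 and -1.06 for Sftpb, dendritic cells at 0.93 and -0.84, and alveolar macrophages at 0.90 and -1.11. For Sftpb the fibroblasts, at -0.01 (-0.51 to 0.46) from 38 UMIs in TNF+, and the NK or innate lymphoid cells, at -0.27 (-1.02 to 0.47), had intervals that held 0. These cells share the suspension of their library with its type 2 cells, so they are not replicates of the difference.

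**Figure D3:**
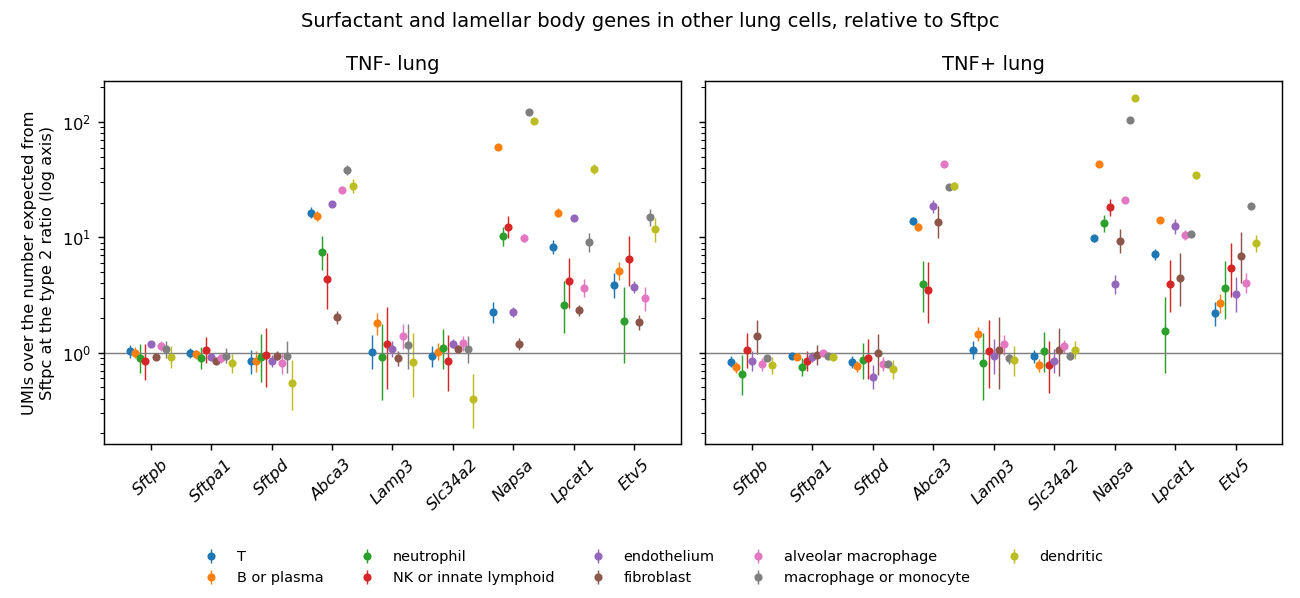
UMIs of 9 genes in each named lung cell type, divided by the number expected if all of the cell type's Sftpc UMIs had come from type 2 cells of the same library (log axis; left, TNF- lung; right, TNF+ lung; bars are 95% counting intervals). Sftpb, Sftpa1, Sftpd, Lamp3 and Slc34a2 lie closest to 1, while Abca3, Napsa, Lpcat1 and Etv5 lie above it in most cell types, Napsa by 163-fold in TNF+ dendritic cells.

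The other 4 genes stood above that expectation in most other cell types, and what was left of them in type 2 cells differed by genotype. TNF- fibroblasts were close to the expectation for Napsa, at 17.6 per 1000 Sftpc UMIs against 14.6 in type 2 cells of the same lung. They held 25.6 Sftpc UMIs per cell against 2.85 in TNF- T cells, which lowers a value relative to Sftpc. TNF+ fibroblasts, at 3.88 Sftpc UMIs per cell, were at 127.9 for Napsa against 13.6 in TNF+ type 2 cells. Type 2 cells held 72.2% of Napsa UMIs in TNF- but 25.6% in TNF+ lung, 73.0% and 48.9% of Abca3, 80.6% and 64.8% of Lpcat1, and 91.0% and 69.8% of Etv5. TNF+ lung had fewer type 2 cells and more myeloid cells among those kept, 3873 macrophage- or monocyte-like cells against 483, so these shares combine the number of cells and their levels.

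Napsa had the largest share of its UMIs outside type 2 cells. Macrophage- or monocyte-like cells were at 468.4 CPM in TNF- and 472.7 in TNF+ lung, 122-fold and 104-fold over the expected count, and held 7.67% and 46.9% of its UMIs. Dendritic cells were at 369.7 and 521.0 CPM, 103-fold and 163-fold over. B cells were at 311.8 and 255.4 CPM. In TNF- lung they held 3439 Napsa UMIs, against 2738 in macrophage- or monocyte-like cells, and in TNF+ lung 4971 against 27812. Within the monocyte class, a cluster of 2514 TNF+ and 266 TNF- cells led by Cd300e, Treml4 and Nr4a1, genes of nonclassical monocytes, was at 753.9 and 655.7 CPM and alone held 20152 Napsa UMIs in TNF+, more than the 15175 of the type 2 cells.

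Abca3 was found at a low level in many cells. Endothelial cells had 73.2 CPM in TNF- and 56.1 in TNF+ lung, macrophage- or monocyte-like cells at 69.1 and 53.1, alveolar macrophages at 56.8 and 55.7 and dendritic cells at 47.4 and 37.9. These levels were between 18.7-fold and 43.7-fold over the count expected from Sftpc. ABCA3 is best known from type 2 cells, and even there the level was at least 10 times that of any of these classes.

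Among classes with at least 50 cells in both lungs, Lpcat1 outside type 2 cells was highest in dendritic cells, at 84.1 CPM in TNF- and 56.2 in TNF+ lung, 39.4-fold and 34.8-fold over the expected count. Endothelial cells were at 71.3 and 44.7 CPM and B cells at 50.1 and 42.2. Etv5 was highest, among the same classes, in macrophage- or monocyte-like cells, at 23.1 and 29.2 CPM, 14.9-fold and 18.6-fold over. There it lay mostly in a cluster led by Cxcl13, C1qc and Ccl8, genes of tissue macrophages, which held 1309 of its 1720 UMIs in the TNF+ class, at 115.8 CPM in 479 cells against 87.5 CPM in 73 TNF- cells.

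**Figure D4:**
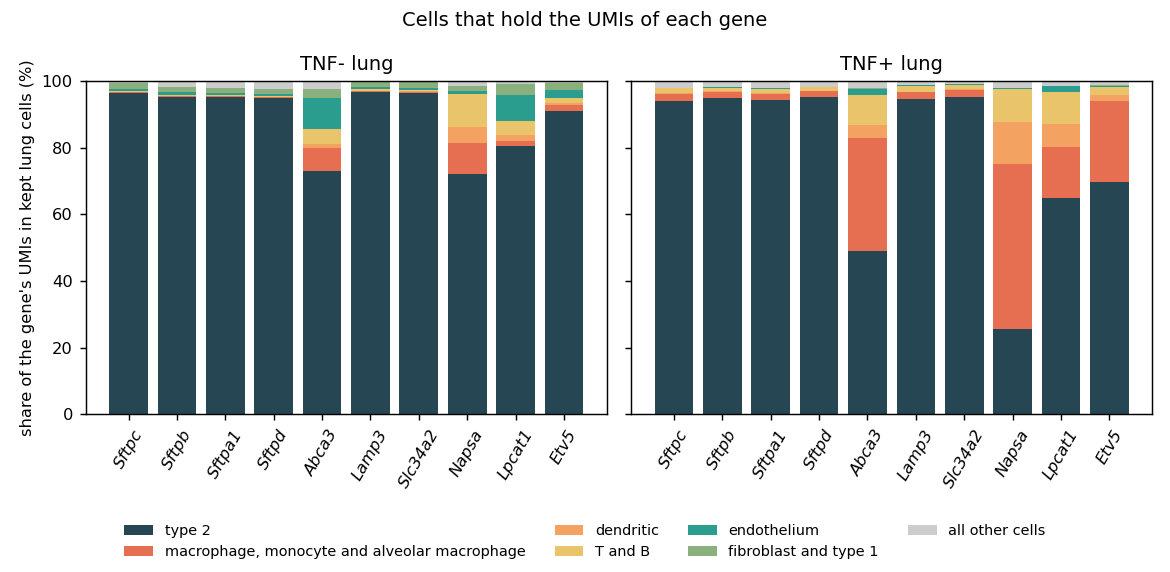
Share of each gene's UMIs, in percent of all UMIs of that gene in kept lung cells, held by each group of cells in TNF- lung (left) and TNF+ lung (right). Type 2 cells (dark blue) hold over 94% of Sftpc, Sftpb, Sftpa1, Sftpd, Lamp3 and Slc34a2 in both lungs, and 72.2% and 25.6% of Napsa.

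Other epithelial cells were few. The airway cluster, with ciliated and club cell markers, held 37 TNF- and 82 TNF+ cells, the latter at a median of 1750.5 UMIs. In the TNF- airway cells Sftpb, Sftpa1 and Sftpd were at 387, 724 and 201 per 1000 Sftpc UMIs, each above the type 2 ratio of the same lung; in TNF+ airway cells they were at 44.5, 228 and 42.4. The type 1-like cluster held 194 TNF- and 33 TNF+ cells and had 93.4 and 3.73 UMIs of Sftpc per cell. Both clusters were under 50 cells in 1 library, and no difference between them is drawn from these values.

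Over all kept lung cells, where cell numbers and levels per cell cannot be told apart, 9 of the 10 genes were lower in TNF+ lung, 6 of them by at least 2-fold. Of 20818 genes, 25.9% were at least 2-fold lower and 5.48% at least 2-fold higher in TNF+ lung, with a median log2 ratio of -0.32. Sftpb was at 1551 and 399 CPM (log2 ratio -1.96), Sftpc at 19163 and 7602 CPM (-1.33), Slc34a2 at 664.7 and 262.4 CPM (-1.34), Lpcat1 at 198.3 and 76.3 CPM (-1.38), Etv5 at 120.2 and 48.6 CPM (-1.31) and Abca3 at 172.5 and 84.9 CPM (-1.02). Sftpa1, at -0.60, Sftpd, at -0.55, and Lamp3, at -0.93, did not pass 2-fold. Abca3 was at -0.95 with at most 5000 genes per cell and at -0.73 with median-of-ratios scaling, short of 2-fold in both. Napsa was at 373.9 and 380.8 CPM (0.03, 0.01 to 0.05). With the study's limit of 5000 genes, Sftpc was at -2.63, Sftpa1 at -1.90 and Sftpd at -1.95 in the whole lung, and Napsa at 0.78.

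In the synovium, the 6 genes held almost wholly by type 2 cells in the lung were at 0 to 7 UMIs per library. Over 6620 TNF- and 3498 TNF+ cells, Sftpc had 2 and 2 UMIs, Sftpb 7 and 1, Sftpd 1 and 0, Slc34a2 1 and 3, Lamp3 5 and 4 and Sftpa1 0 and 0. None of the Sftpc UMIs lay on a barcode that a kept lung cell also had. Taken as 3 counts of the cells, a count of 0 allows up to 0.0453% of TNF- and 0.0858% of TNF+ cells with a UMI of Sftpa1. These counts do not allow a comparison between genotypes.

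Napsa, Abca3, Lpcat1 and Etv5 were measured in the synovium at 388 to 4819 UMIs per library. Of 19789 genes, 12.1% were at least 2-fold higher and 22.1% at least 2-fold lower in TNF+ synovium, and 1 of these 4 genes, Etv5, was lower by that fold. Etv5 was at 17.4 CPM in TNF- and 8.20 in TNF+ synovium, a log2 ratio of -1.09 (-1.25 to -0.92). Napsa was at 53.5 and 85.4 CPM (0.68, 0.61 to 0.74), Abca3 at 16.6 and 14.9 CPM (-0.16, -0.29 to -0.03) and Lpcat1 at 17.04 and 11.7 CPM (-0.54, -0.68 to -0.40).

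In the synovium Napsa lay mostly in myeloid cells. Dendritic cells were at 304.0 CPM in TNF- (464 cells) and 524.5 in TNF+ (52 cells), and macrophage- or monocyte-like cells at 308.2 (242 cells) and 210.2 (1046 cells). Together these classes held 22.2% and 70.2% of the TNF- Napsa UMIs, for macrophage- or monocyte-like and dendritic cells in that order, and 82.0% and 10.2% of the TNF+ ones. Cells of the named fibroblast class were at 0.592 CPM in TNF- and 1.33 in TNF+, the latter from 1 UMI.

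Among named classes, Abca3 was highest in synovial endothelium in TNF-, at 43.0 CPM. In TNF+ synovium it was at 27.8 CPM in endothelium and 27.2 in Schwann-like cells, and at 29.8 in an epithelial cluster of 179 cells led by Krt18, Krt8 and Cldn4. Lpcat1 was highest, among named classes, in Schwann-like cells, at 48.6 and 31.3 CPM, and in a TNF+ cluster led by Acp5, Mmp9 and Ctsk, genes of osteoclasts, it was at 36.3 CPM in 95 cells. Etv5 was also highest, among named classes, in Schwann-like cells, at 35.0 and 19.2 CPM, from 18 and 19 UMIs. In an unnamed cluster led by Cxcl14, Grm8 and Smoc2, with 1301 TNF- and 50 TNF+ cells, it was at 27.4 CPM in TNF-. The near absence of this cluster from the TNF+ library moved with the lower whole-tissue level of Etv5. Its part in that level was not tested.

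**Figure D5:**
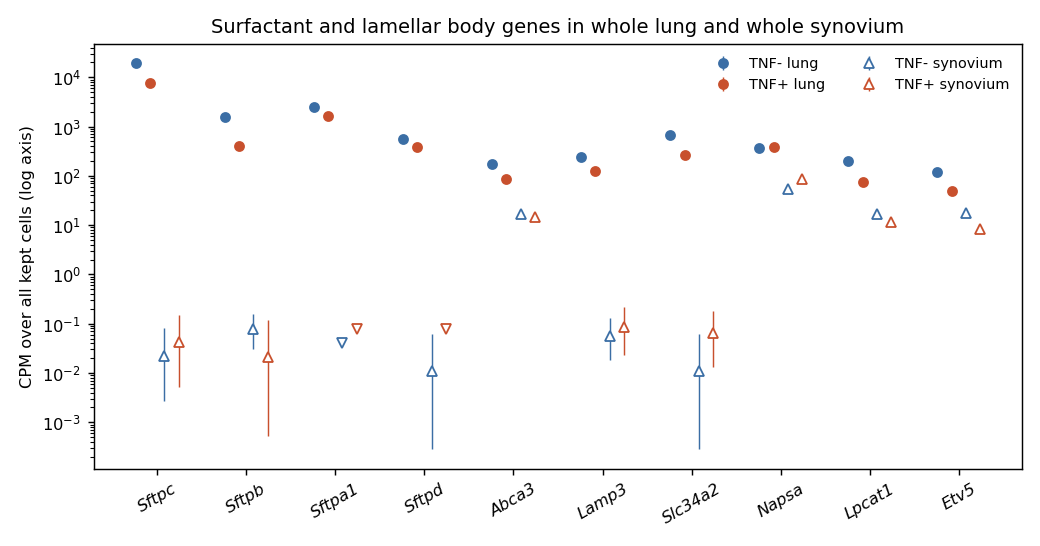
CPM over all kept cells (log axis) for each gene in TNF- (blue) and TNF+ (red) lung (filled circles) and synovium (open triangles); bars are 95% counting intervals and open triangles that point down mark the upper limit where no UMI was found. Sftpc, Sftpb, Sftpa1, Sftpd, Lamp3 and Slc34a2 are under 0.1 CPM in synovium, and Napsa, Abca3, Lpcat1 and Etv5 are between 8.20 and 85.4 CPM.

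Across 73 lung clusters by library, 6 of the 10 genes were among the 8 with the highest correlation to the mean of all 10, to which each contributes, and the remaining 4 ranked 87 (Lpcat1), 136 (Etv5), 210 (Abca3) and 392 (Napsa) of 17393 genes. The genes outside the list with the most similar pattern were Cxcl15 (r = 0.92), Mlc1 (0.90), Sfta2 (0.87), Hc (0.87), Pla2g1b (0.86), Wfdc2 (0.85), Lrp2 (0.85) and Scd1 (0.84). Clusters of 1 library share its suspension.

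Other genes of surfactant production were read in the type 2 cells as lists. Of 23 measured lipid synthesis genes, 4 were at least 2-fold lower and 1 at least 2-fold higher in TNF+ by the rule given above for marker lists, which 4.26% of all genes met as lower and 5.3% as higher, and their median log2 ratio was -0.50. Lower ones were Insig1 (157.5 and 49.1 CPM, log2 ratio -1.68), Hmgcs1 (188.2 and 61.5, -1.61) and Sqle (60.3 and 23.8, -1.34). These 3 are known targets of the sterol-responsive factor SREBP-2, and Hmgcs1 and Sqle encode enzymes of cholesterol synthesis rather than of phospholipid synthesis. Genes of fatty acid synthesis and desaturation did not pass 2-fold. Fasn was at 629.8 and 557.4 CPM (-0.18) and Scd1 at 2675.5 and 3766.5 CPM (0.49), while Acaca was at -0.72, Acly at -0.80, Scd2 at -0.89 and Elovl1 at -0.68 on the log2 scale. Of the enzymes of phosphatidylcholine synthesis, Pcyt1a, the rate-limiting one, was at 77.8 and 69.2 CPM (-0.17) and Chka at 433.5 and 245.6 CPM (-0.82). Fabp5, a fatty acid binding protein that macrophages also express, was the higher one, at 830.3 and 2344.3 CPM.

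Of 24 processing and trafficking genes, Rab32, a GTPase of lysosome-related organelles, was the only one past 2-fold, at 2.04 and 9.46 CPM (2.22, from 24 and 83 UMIs), and the median was 0.12. Some macrophage markers lay at like levels in these cells, with Adgre1 at 1.36 and 11.1 CPM. The part of such RNA in the Rab32 difference was not tested. Ctsh, which cleaves the SP-B and SP-C precursors along with Napsa, was at 850.0 and 964.1 CPM (0.18). Of 13 measured transcription factors none passed 2-fold: Nkx2-1, the regulator of surfactant genes, was at 376.9 and 371.6 CPM (-0.02), Foxa2 at 85.8 and 68.9 CPM (-0.32) and Cebpa at 290.8 and 159.2 CPM (-0.87). Of 12 type 1 and transitional genes, Pdpn and Cldn4 were past 2-fold, and the median of the list was -0.05. Pdpn was at 1.36 and 21.99 CPM, from 16 and 193 UMIs. Cldn4 was at 1.61 and 7.86 CPM, from 19 and 69 UMIs. The part of RNA of other cells in these differences was not tested either. Krt8, a keratin of transitional cells, was at 213.7 and 144.6 CPM (-0.56).

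Among the 19 markers that named the type 2 cells, Chil1, a chitinase-like protein, was higher in TNF+ (2126.9 and 7408.8 CPM, log2 ratio 1.80), and Acoxl (899.5 and 166.7 CPM, -2.43), Cbr2 (3036 and 1105 CPM, -1.46) and S100g (1287.5 and 624.8 CPM, -1.04) were lower, with a median of -0.14 over the list. Surfactant is also cleared by macrophages, and 18 clearance genes were read in the alveolar and other macrophage- or monocyte-like cells together. By the same rule 3 were higher and 4 lower in TNF+, with a median log2 ratio of -0.26, beside 4.94% of 16521 genes higher and 11.3% lower in these cells. Marco, a scavenger receptor, was at 113.0 and 450.2 CPM (1.99), Fabp5 at 239.2 and 624.1 CPM (1.38) and Fabp4 at 91.5 and 206.2 CPM (1.17). Abcg1, a sterol exporter, was at 1072.3 and 354.9 CPM (-1.60), with Siglecf (-1.33), Cd36 (-1.18) and Mrc1 (-1.10) also at least 2-fold lower. Alveolar macrophages were 455 cells beside 483 other macrophage- or monocyte-like cells in TNF- and 639 beside 3873 in TNF+, so these ratios combine the make-up of the class and its levels.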

How the data were processed

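The values deposited by the authors are raw UMI counts, made with Cell Ranger 7.0.1 at default settings (intronic reads counted) on the 10x mouse reference of build mm10, which does not hold the human transgene. Read mapping was not repeated. The 10 genes and the gene lists were chosen with earlier results of these data known. Cells with 200 or more genes and at most 20% mitochondrial UMIs were kept, with no upper limit on genes. Each tissue was clustered on 2000 variable genes without the 10 genes (30 principal components, 20 neighbours, leidenalg 0.10.2, resolution 0.8). A cluster was named with 5 or more markers. It stayed unnamed where another class led its top genes or where it was shallow without a top marker of its own. In synovium it also stayed unnamed where another class had more passing markers. A lung T cell cluster with 5 or more B cell markers was set aside as unnamed too. Unnamed cells were 2163 of 6620 in TNF- and 931 of 3498 in TNF+ synovium. In lung they were 430 of 8296 and 1151 of 11083. No doublets were removed. The highest Scrublet scores (Scanpy 1.11.5) were marked in each lung library, a share fixed beforehand at 0.8% of cells per 1000 barcodes. Marked were 43 of 444 TNF- (9.68%) and 45 of 255 TNF+ type 2 cells (17.6%), beside 6.85% and 9.00% of all kept lung cells. UMIs were summed per class and library and given as CPM. Intervals were Poisson, Clopper-Pearson or conditional binomial at 95%. All 10 genes are named, with list genes of 50 or more UMIs past 2-fold and, chosen after their values were seen, a few below it. The ratio with its counting interval and the thinning were tested on simulated Poisson counts, and the other steps were not tested in this way. One list gene is not reported here.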

Additional observations from a re-analysis of the deposited data

How the results depend on the processing

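Each library stands alone, so nothing beyond counting error was measured. No paired analysis was possible because each group is 1 library, and leaving out a library leaves no comparison. The depth bands, UMIs per cell, the finer cluster and the counts of list genes were chosen after seeing the data.

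With at most 5000 genes per cell, type 2 cells numbered 165 in TNF- and 47 in TNF+ and held 21.0% and 4.01% of Sftpc UMIs. At most 10% mitochondrial UMIs left 93.9% and 93.1% of Sftpc UMIs in them, removal of the highest Scrublet scores 87.4% and 78.3% (median log2 ratio of the 10 genes -0.25), and removal of cells with a Ptprc UMI 75.4% and 45.8%, with 137 TNF+ cells. Clustering each library alone gave 96.4% in TNF- and a median of -0.22. A marker score per cell with no clustering took 1633 TNF+ cells, only 220 of them in the type 2 cluster and 595 macrophage- or monocyte-like; it held 79.5% and 88.3% of Sftpc UMIs, gave a median of -1.91 and 38 list genes past 2-fold against 8. The median was -0.25 at 30000 to 60000 UMIs, -0.54 in the larger cluster at resolution 1.2, -0.32 with the 10 genes left out of the total, -0.34 with the UMIs of T and B cells subtracted, and 0.087 for UMIs per cell.

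Sftpb, Lpcat1 and Etv5 were lower in TNF+ under all 17 alternatives, which were not independent of each other. A minimum of 500 genes and resolution 0.4 each kept the same 444 TNF- and 255 TNF+ type 2 cells. Resolution 1.2 kept 444 and 254. In the larger cluster at resolution 1.2, Etv5 was at -0.11 with an interval that held 0 (-0.22 to 0.001). Sftpa1 kept its direction in 14 and Sftpd and Lamp3 in 15; all 3 turned under the marker score and in the larger finer cluster, and Sftpa1 also at 5000 genes. In whole tissues, no direction turned under 4 alternatives, but Abca3 in lung fell short of 2-fold under 2 of them.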

Other observations

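Lamp3 is also known as a marker of mature dendritic cells. In TNF+ lung, 65 dendritic cells with at least 3 of 8 maturation markers (Ccr7 and Fscn1 among them) had 13 Lamp3 UMIs, or 7.23 CPM (3.85 to 12.4), and 492 other dendritic cells had 34, or 2.74 CPM (1.90 to 3.83), with 5.35 and 6.05 Sftpc UMIs per cell. In TNF- lung, 14 such mature cells had 1 Lamp3 UMI, or 2.75 CPM (0.0696 to 15.3), and 164 others had 10, or 2.48 CPM (1.19 to 4.57). The 464 and 52 dendritic cells of TNF- and TNF+ synovium, where almost no surfactant RNA was present, had 1 and 0 Lamp3 UMIs in all. This split was made after the values were seen.

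The lung barcodes outside the cell filter, 259 in TNF- and 160 in TNF+, were at 34.8 and 14.7 Sftpc UMIs per barcode. Per 1000 Sftpc UMIs, Sftpb was at 185.1 and 123.4 in them, against 79.9 and 53.0 in type 2 cells.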
